A study of Homo sapiens with 9 samples.

Results

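The comparison described here set KHM-5M cells treated with 1 µM of YK-4-279 for 24 h against KHM-5M cells given the solvent DMSO for the same time, with 3 samples on each side out of the 9 samples in the series. KHM-5M is a human thyroid cancer cell line, and YK-4-279 is a small molecule sold and studied as an inhibitor of ETS transcription factors, dissolved in DMSO. The other 3 samples received 0.3 µM of the compound for 24 h. RNA was read by sequencing, per the labels after capture on poly-T beads, and all samples came from 1 line, so the values describe KHM-5M and not thyroid cancer in general. Nothing in the labels says that the 3 samples of a group were separate cultures, so p-values measure the spread between these samples, which may be technical.

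A cell exposed to a growth inhibitor typically changes several programmes at once. The cell cycle runs on waves of transcription, with E2F factors driving the genes needed to enter S phase and a later wave supplying the kinases, motors and kinetochore proteins of mitosis. Signalling through the MAPK cascade switches on immediate early genes within minutes and then the phosphatases and adaptors that damp the cascade, while heat shock, oxidative, amino acid and p53 responses each have their own set of target genes. RNA processing is coupled to all of these, because histone messages, spliced messages and long RNAs kept in the nucleus mature by different routes.

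Total counts per sample lay between 16903251 and 18238884, and 3 counts corresponded to between 0.164 and 0.177 CPM, the count of a gene scaled to a common library size, across the samples. The first principal component of the 6 samples separated treated from solvent samples and held 49.4% of the variance. The second held 16.3% and set DMSO replicate 2 apart. In the decile of protein-coding genes with the highest GC content, the median gene of DMSO replicate 2 lay 0.21 log2 units below the mean of the other two DMSO samples, and DMSO replicate 1 lay 0.20 above its own counterparts. At 1 µM the largest such departure in the same genes was 0.10, in replicate 2. Removing each sample's GC trend raised the number of genes called from 2752 to 3689.

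The labelled tissue was checked against 14 thyroid genes. TSHR, DUOX2 and IYD had no count in any of the 6 samples, TG, SLC5A5 and DIO1 stayed under 10 counts in each, and most of the thyroid signal came from PAX8 with 2742 to 3275 counts per sample. Summed over the 14 genes it was 186.2 to 198.0 CPM in DMSO and 181.1 to 197.9 CPM at 1 µM. The 8 epithelial markers summed to 1869.0 to 1884.4 CPM in DMSO and 1840.9 to 1963.2 CPM at 1 µM, although CDH1 stayed under 10 counts. Fibroblast genes, mostly COL1A1, summed to 495.0 to 668.0 CPM in DMSO and 434.3 to 493.1 CPM at 1 µM. Immune genes summed to at most 3.55 CPM and endothelial genes to at most 6.4 CPM in any sample, with PTPRC at 0 in all DMSO samples. In bulk RNA, fewer cells of a type and less RNA per cell cannot be told apart.

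Of 58735 genes in the table, 15617 had enough counts to be tested. At an adjusted p under 0.05, 1198 genes rose at 1 µM, which was 7.67% of those tested, and 1554 fell, which was 9.95%. Every adjusted p in the text is the Benjamini-Hochberg value of edgeR's quasi-likelihood test over all genes tested, and every fold change is 1 µM over DMSO. The genes that rose had a median log2 fold change of 0.34 and those that fell one of -0.51, against -0.01 over all genes tested. Changes of at least 1.5-fold were called for 214 genes that rose (1.37%) and 647 that fell (4.14%). The 3 samples at 1 µM lay above all 3 DMSO samples for 2960 genes (19.0%) and below them for 2762 (17.7%). The counts depended on single libraries. Without DMSO replicate 3 the test called 655 genes higher and 1028 lower, and without 1 µM replicate 1, 2 or 3 it called 791, 751 or 750 higher and 1111, 1004 or 1055 lower. An exact permutation test of a single gene cannot go below p = 0.1 with 3 samples against 3.

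Of 12900 protein-coding genes tested, 1178 were higher (9.13%) and 1160 lower (8.99%). That balance moved with the settings, to 1551 higher and 1060 lower with no count filter, 1138 and 884 with DESeq2, 646 and 766 without DMSO replicate 3, and 201 and 305 at 1.5-fold or more. Genes of all other biotypes, mostly long non-coding RNAs and pseudogenes, were called almost entirely downward, with 20 higher (0.736%) and 394 lower (14.5%) of 2717. The median log2 fold change of the non-coding genes called lower was -1.06, against -0.42 for protein-coding genes called lower. Without 1 µM replicate 2 the number of these genes called lower was 228, and without DMSO replicate 3 it was 262. Without DMSO replicate 3 the number called higher was 9, without 1 µM replicate 1, 2 or 3 it was 13, 8 or 13, and with DESeq2 the 2 numbers were 10 and 254. The plot of fold change against count shows both classes.

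**Figure D1:**
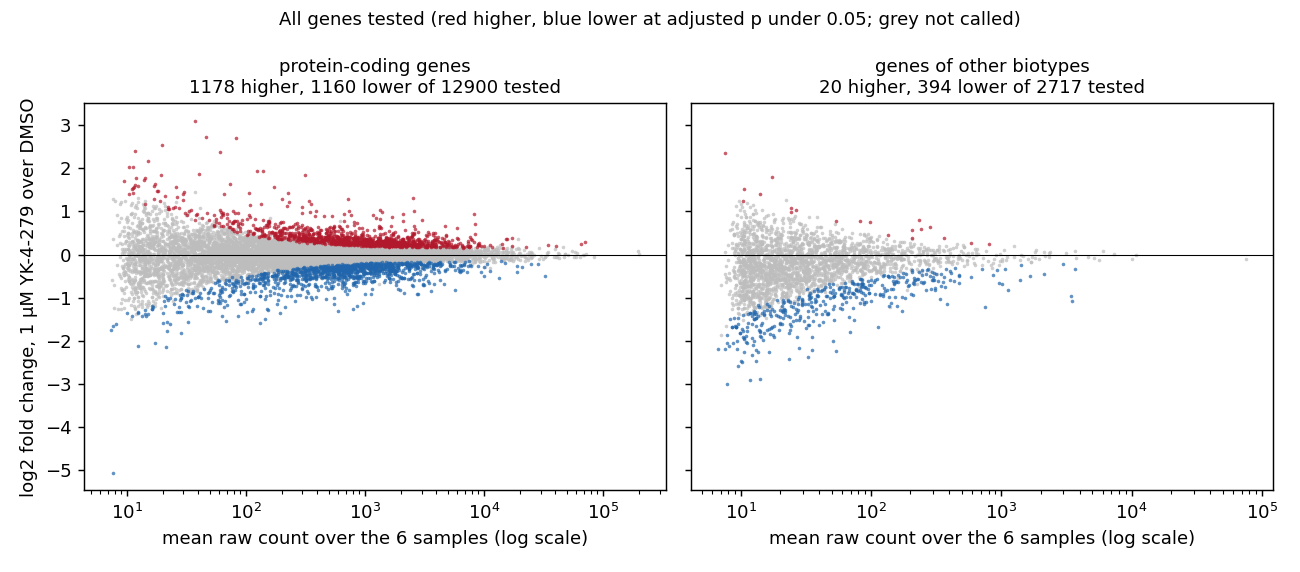
Log2 fold change of 1 µM over DMSO (vertical) against the mean raw count over the 6 samples (horizontal, log scale), 1 point per gene tested, protein-coding genes on the left and other biotypes on the right. The left panel holds 1178 higher and 1160 lower calls, while the right panel holds 394 lower and 20 higher.

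Gene lists covering 51 programmes were compared by how many of their members passed the test. Of the members tested, 57.9% of MAPK feedback genes, 52.2% of immediate early genes, 51.7% of replication-dependent histones, 41.2% of V-ATPase subunits and 38.6% of ribosome biogenesis factors rose, against 7.67% of all genes, and no member of these lists fell. Against 9.95% of all genes, 58.1% of the E2F-driven genes of the G1/S transition, 48.6% of SR and LUC7-like splicing factors, 43.2% of the genes of G2 and mitosis and 24.5% of cilium and centriole genes fell. Respiratory chain subunits and small ribosomal proteins held none called in either direction. Each list count below stands beside shares of 7.67% higher and 9.95% lower over all genes. Over protein-coding genes alone these shares were 9.13% and 8.99%. Some immediate early, MAPK feedback and histone genes passed the count filter mainly through the 1 µM samples, which favours calls upward.

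**Figure D2:**
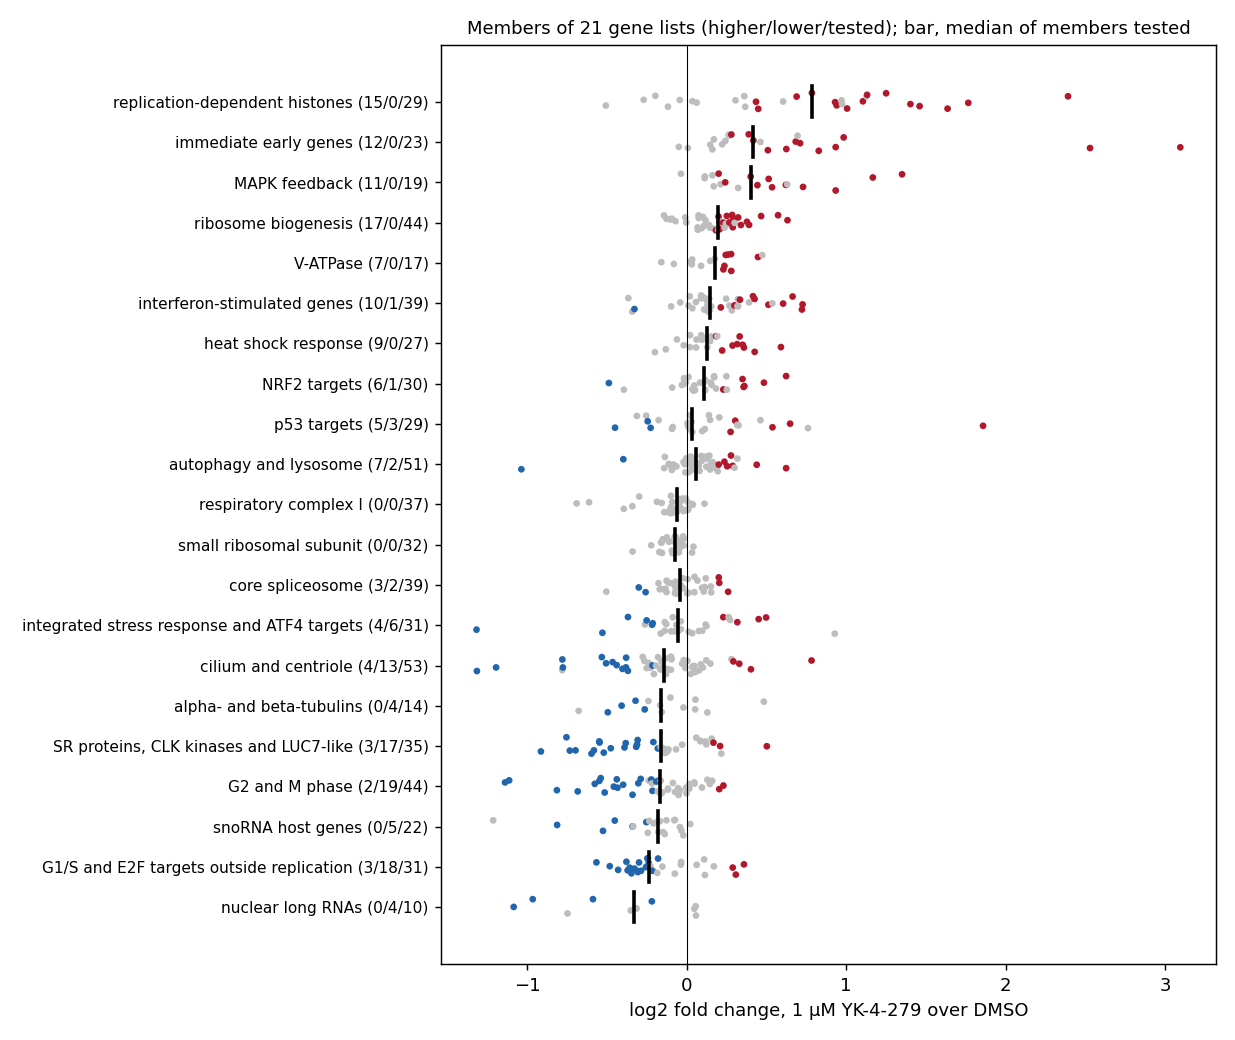
Log2 fold change of 1 µM over DMSO for each tested member of 21 gene lists (points; red higher, blue lower at adjusted p under 0.05, grey not called), with a black bar at the list median and the numbers higher, lower and tested beside each name. Medians run from 0.79 for the replication-dependent histones to -0.33 for the nuclear long RNAs.

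The histone list had the highest median. Replication-dependent histones are the bulk proteins that package new DNA, and their messages normally end at a conserved stem-loop without a poly(A) tail. Of 65 genes listed, 29 had enough counts to be tested, 15 rose, none fell, and the median log2 fold change was 0.79 against -0.01 for all genes. Several of the 29 passed the count filter mainly through the 1 µM samples, so the sum over all 65 genes is the fairer measure. That sum was 151.0, 171.4 and 154.9 CPM in the DMSO samples and 258.0, 274.2 and 271.3 CPM at 1 µM, a ratio of 1.68 between the means, with no overlap between the groups.

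The labels describe capture of poly(A) RNA, whereas the study's methods name a stranded mRNA kit and also a small RNA kit, so which RNA entered the libraries is not certain for histone messages. The stem-loop was therefore looked up in each gene's transcripts. Among the perfect hairpins with a stem of 6 bases and a loop of 4 in the GENCODE release 44 transcripts of the listed genes, the one shared by most genes was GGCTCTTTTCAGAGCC, present in 34 of the 61 genes with a transcript. A stretch with at most 3 mismatches to it was found in all 61, including the 15 that rose. These 16 bases are in capitals below, on the transcript strand. They come from an H2B gene with a long transcript model, another H2B gene and an H4 gene. In the second gene, each model that held the loop ended 5 bases past it. The cores lie at chr1:149886188-149886203, chr6:26123472-26123487 and chr6:26285131-26285146 of GRCh38, all on the minus strand.
HIST2H2BE: ccaaaGGCTCTTTTCAGAGCCaccc
HIST1H2BC: ccaaaGGCTCTTTTAAGAGCCaccc
HIST1H4H: ccaaaGGCCCTTTTCAGGGCCgccc
In 6 of the 15 genes that rose, at least 1 transcript model with the loop ran on for more than 100 bases past it. The same held for 2 of the 13 genes with a transcript among the 14 tested and not called, and no test was made of this difference. In HIST2H2BE the model ran on for 1729 bases past the loop. Models without the loop were not counted, so a long message described only by such a model would be missed.

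By family, the H1 genes summed to 17.2, 19.4 and 16.3 CPM in DMSO and 31.3, 33.1 and 34.6 CPM at 1 µM. The 17 H2B genes summed to 73.5, 85.7 and 75.3 CPM in DMSO and 129.0, 138.1 and 137.8 CPM at 1 µM. The 13 H3 genes summed to 7.98, 10.7 and 7.56 CPM in DMSO and 9.16, 8.61 and 11.7 CPM at 1 µM. The H1 and H2B sums did not overlap between the groups, nor did those of H2A and H4, whereas the H3 sums did. Many of these coding sequences are nearly identical, so the division of reads among single genes is less certain than the sums.

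HIST2H2BE, an H2B gene of chromosome 1, was at 10.5, 11.0 and 13.2 CPM in DMSO and 24.5, 30.0 and 28.5 CPM at 1 µM (log2 fold change 1.25 ± 0.11 SE, adjusted p = 1.44e-05). HIST1H1C, a linker histone H1 gene of chromosome 6, was at 15, 16.3 and 13.4 CPM in DMSO and 29.0, 30.6 and 30.7 CPM at 1 µM (1.01 ± 0.09, adjusted p = 1.71e-05). HIST1H2BJ, an H2B gene of the chromosome 6 clusters, was at 14.3, 12.8 and 12.5 CPM in DMSO and 13.0, 11.3 and 10.4 CPM at 1 µM and did not pass the test (adjusted p = 0.277). The first and second of these genes lay above every DMSO sample in each treated sample, while HIST1H2BJ, chosen after its values were seen, overlapped between groups. H1F0, a linker histone with a polyadenylated message that is made outside S phase and was also chosen after its values were seen, was at 316.7, 335.0 and 315.1 CPM in DMSO and 564.7, 645.2 and 653.8 CPM at 1 µM (0.94 ± 0.06, adjusted p = 4.34e-06).

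**Figure D3:**
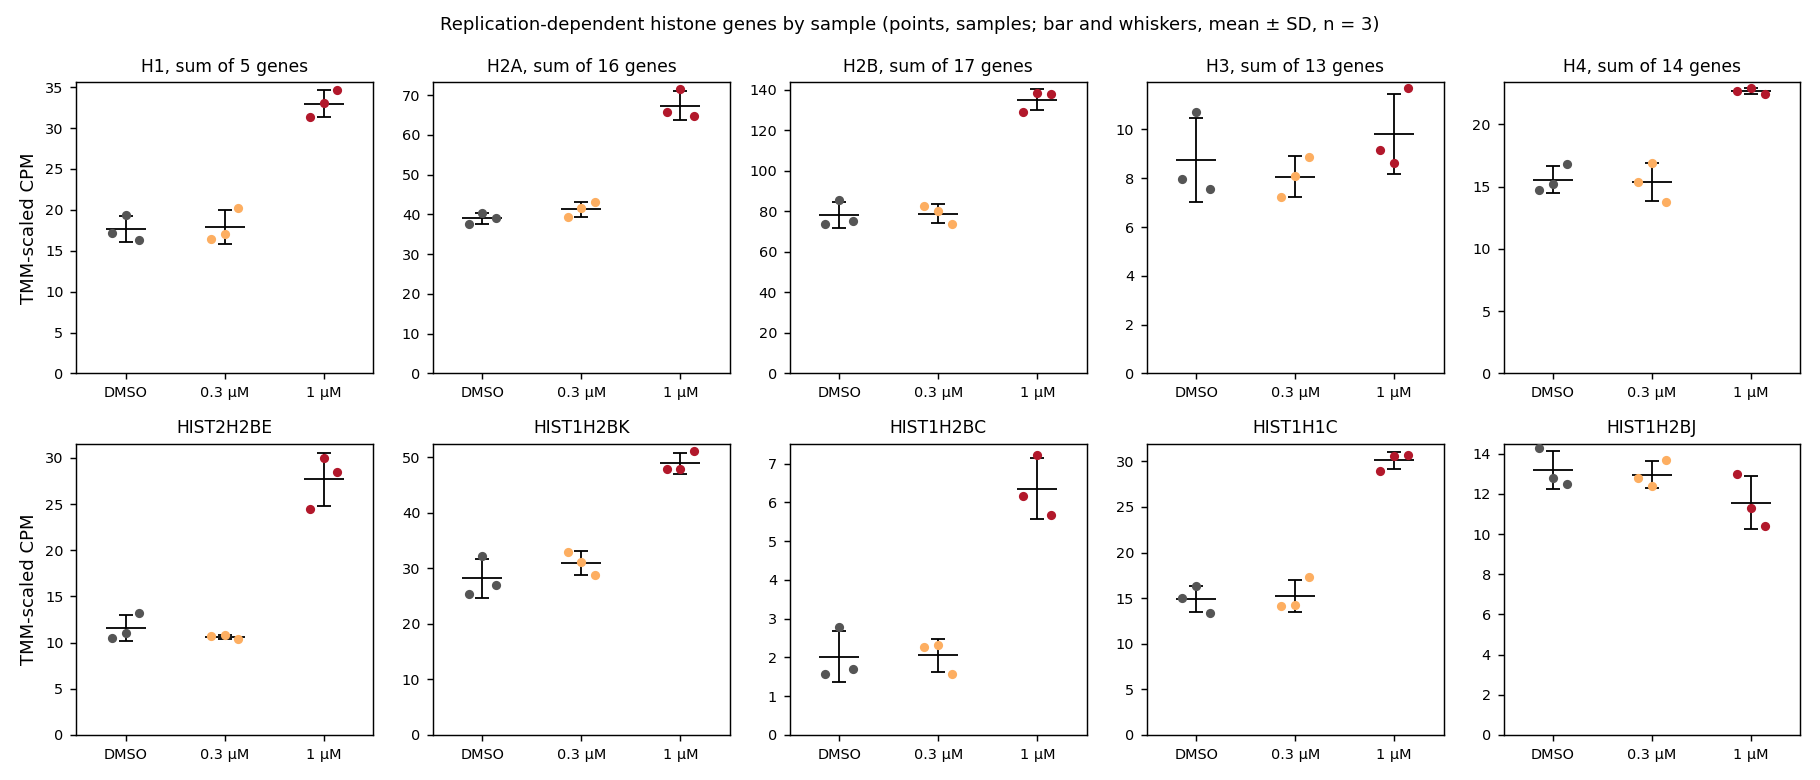
TMM-scaled CPM in each of the 9 samples for the summed H1, H2A, H2B, H3 and H4 replication-dependent genes (top) and for 5 single genes (bottom), with points for samples and bars with whiskers for the mean ± SD (n = 3). Sums at 1 µM lie above both other groups for H1, H2A, H2B and H4, and overlap for H3 and for HIST1H2BJ.

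Promoters of the histone genes were searched for the letters of the octamer, ATTTGCAT, and of the CCAAT box, CCAAT, on both strands within the 250 bases before each RefSeq start. RefSeq promoters (GRCh38.p14) were matched for 28 of the 29 tested histone genes. The octamer was present in 13 of these 28 and in 1.66% of all 27305 promoters of the same length, and CCAAT in 24 of 28 and in 33.0% of all. Of the 15 genes that rose, 8 had the octamer, which leaves 5 octamer promoters among the 13 tested genes that were not called. Stretches of 2 of the H2B promoters follow, on the gene's strand, with matches in capitals (ATTGG is CCAAT on the other strand), at chr1:149886683-149886802 and chr6:27146859-27146978.
HIST2H2BE: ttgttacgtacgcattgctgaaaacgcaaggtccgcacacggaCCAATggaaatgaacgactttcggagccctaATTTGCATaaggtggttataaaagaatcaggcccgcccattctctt
HIST1H2BK: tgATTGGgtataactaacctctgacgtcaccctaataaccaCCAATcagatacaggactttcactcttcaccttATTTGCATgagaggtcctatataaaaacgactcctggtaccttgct
HIST1H2BK, the second of them, was at 25.4, 32.2 and 27.0 CPM in DMSO and 47.8, 47.8 and 51.1 CPM at 1 µM (0.79 ± 0.09, adjusted p = 6.5e-05).

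The share of non-coding genes that fell was above that of protein-coding genes at low and at high expression. Among genes with a mean of at least 10 CPM over the 6 samples, 73 of 271 non-coding genes fell (26.9%) against 945 of 9424 protein-coding genes (10%). Below 1 CPM the shares were 10.2% and 3.15%. In both classes a gene this low can pass the count filter through the samples of 1 group alone, which favours a call in that direction. How many did so was not counted. With no filter beyond 1 count, 31 non-coding genes were called higher and 493 lower. By biotype, 125 of 754 antisense genes, 61 of 588 long intergenic RNAs, 54 of 222 transcribed unprocessed pseudogenes, 29 of 148 processed transcripts, 23 of 128 genes of the TEC class (not yet experimentally checked) and 20 of 109 sense-intronic genes fell. The share was 16.6% for antisense genes and 24.3% for the transcribed unprocessed pseudogenes, but 10.4% for long intergenic RNAs, which is near the 9.95% over all genes. It was 8.5% of 447 processed pseudogenes, 6.67% of 45 sense-overlapping genes and 8.7% of 23 genes at bidirectional promoters, all below that background. These classes and the long intergenic RNAs had median levels of 1.43 to 1.91 CPM. At a mean of 1 to 2 CPM, 4.95% of protein-coding genes fell. Non-coding genes took 2.37% to 2.44% of all counts in the DMSO samples and 2.01% to 2.21% at 1 µM, with no overlap.

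**Figure D4:**
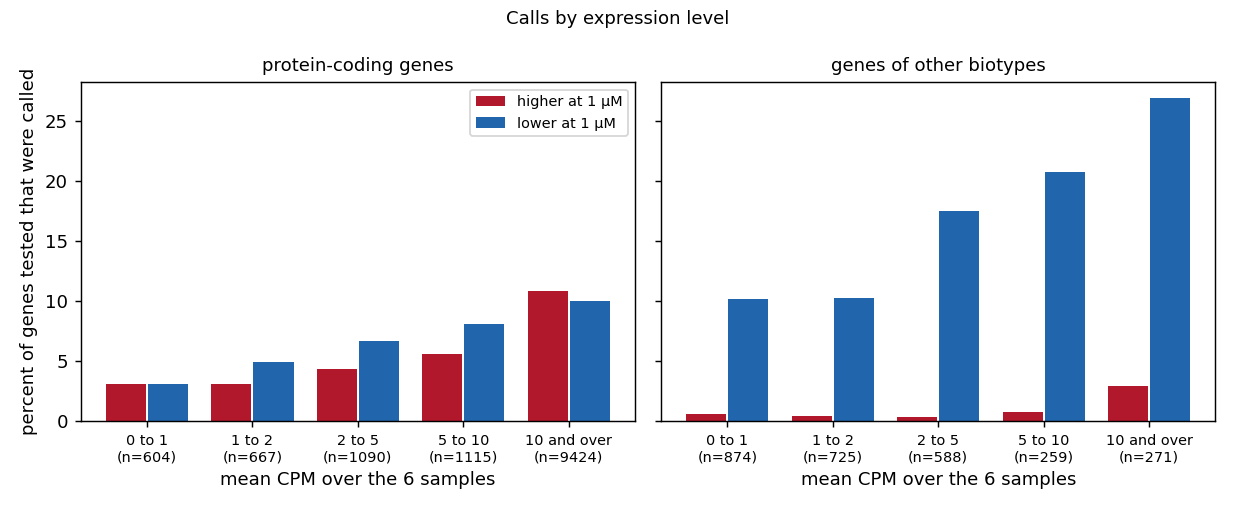
Percent of genes tested that were higher (red) or lower (blue) at 1 µM, by mean CPM over the 6 samples, for protein-coding genes (left) and other biotypes (right), with the number of genes under each pair of bars. Lower non-coding genes rise from 10.2% below 1 CPM to 26.9% at 10 CPM and over, and higher ones stay at or under 2.95%.

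Many non-coding genes lie across protein-coding ones, and the sources differ on whether the kit marked strand, so their reads cannot always be told apart. The share that fell was 20.1% of 364 genes overlapping a protein-coding gene on the same strand, 17.9% of 948 overlapping one on the other strand alone, and 10.7% of 1405 overlapping none. The protein-coding partners of the same-strand genes that fell had a median log2 fold change of -0.14, and those of the other-strand genes -0.04. Several protein-coding genes named below also cross a gene on the other strand, among them CEP290, CDKN2B, LRIG1, ASNS, SQSTM1, MAP1LC3B, ATG16L2 and ATG4B.

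AL133230.1, a non-coding gene across from the phosphatase gene PTPN1 on chromosome 20, was at 8.33, 11.6 and 9.44 CPM in DMSO and 2.84, 2.72 and 3.73 CPM at 1 µM (-1.67 ± 0.18, adjusted p = 4.92e-05). LINC00894 on the X chromosome was at 6.0, 7.85 and 4.66 CPM in DMSO and 1.69, 1.21 and 2.49 CPM at 1 µM (-1.79 ± 0.26, adjusted p = 0.000475). In both genes every treated sample lay below every DMSO sample. The few non-coding genes that rose included MIR22HG, the host transcript of a microRNA, at 5.12, 3.79 and 3.54 CPM in DMSO and 7.15, 6.82 and 7.04 CPM at 1 µM (0.75 ± 0.17, adjusted p = 0.00858), and LINC00973 (0.58 ± 0.10, adjusted p = 0.00166).

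Some long RNAs that stay in the nucleus fell. Of 10 tested, 4 fell and none rose, with a median of -0.33. NEAT1, the scaffold of nuclear paraspeckles, was at 242.1, 324.3 and 241.5 CPM in DMSO and 145.8, 85.0 and 152.6 CPM at 1 µM (-1.08 ± 0.16, adjusted p = 0.000601). MALAT1, a transcript of nuclear speckles, was at 225.7, 302.6 and 249.5 CPM in DMSO and 141.3, 111.9 and 147.4 CPM at 1 µM (-0.96 ± 0.11, adjusted p = 5.35e-05). Neither gene overlapped between the groups, and for both DMSO replicate 2 was the highest sample and 1 µM replicate 2 the lowest. KCNQ1OT1, the long antisense transcript of an imprinted locus, fell from 95.9 to 64.2 CPM on average (-0.59 ± 0.08, adjusted p = 0.000204). Of 22 snoRNA host genes tested 5 fell and none rose, among them SNHG19 (-0.81 ± 0.12) and SNHG1 (-0.45 ± 0.06), with a median of -0.18. GAS5, a further snoRNA host, was at 222.2, 254.2 and 230.9 CPM in DMSO and 191.0, 192.6 and 178.5 CPM at 1 µM.

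Splicing regulators and the core machinery are given in turn, with no test of the difference between them. Of 35 tested SR proteins, CLK kinases and LUC7-like factors, which bind enhancer sequences, phosphorylate SR proteins or contact the U1 particle, 17 fell and 3 rose, with a median of -0.16. PNISR, an SR-related protein, was at 191.8, 232.1 and 210.6 CPM in DMSO and 120.3, 99.0 and 119.4 CPM at 1 µM (-0.91 ± 0.08, adjusted p = 1.44e-05). LUC7L3 fell by 0.73 ± 0.07, LUC7L by 0.75 ± 0.10 and the RNA helicase DDX39B, which holds SNORD117, by 0.70 ± 0.07 on the log2 scale. SRRM2, the most abundant member, was at 768.9, 690.7 and 728.7 CPM in DMSO and 581.1, 546.3 and 561.5 CPM at 1 µM (-0.38 ± 0.06, adjusted p = 0.000468). SRSF1, named after its values were seen, rose by 0.50.

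Of 39 core spliceosome proteins, 3 rose and 2 fell, with a median of -0.04. Of 13 minor spliceosome proteins, which handle a rare class of introns, 3 fell and none rose. RNPC3, which bridges the U11 and U12 particles, was at 23.9, 27.6 and 22.5 CPM in DMSO and 13.9, 12 and 11.4 CPM at 1 µM (-0.99 ± 0.11, adjusted p = 5.35e-05). Part of RNPC3 is shared with AMY2B on the same strand. CCDC84 fell by 0.73 ± 0.14 and runs across RPS25 on the opposite strand.

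Most genes of S phase entry fell. Of 31 E2F-driven genes tested, chosen outside the replication machinery, 18 fell and 3 rose, with a median of -0.24. E2F8, an atypical E2F, was at 42.1, 47.7 and 41.4 CPM in DMSO and 32.1, 28.0 and 28.9 CPM at 1 µM (-0.56 ± 0.08, adjusted p = 0.00049). DUT, which clears dUTP, was at 98.4, 103.5 and 104.4 CPM in DMSO and 73.8, 76.1 and 78.8 CPM at 1 µM (-0.43 ± 0.06, adjusted p = 0.000323). Both genes were lower in all 3 treated samples. TK1, which makes dTMP by salvage, fell by 0.30 ± 0.07 (adjusted p = 0.0089). The 3 that rose, named after their values were seen, were CCND1 (0.36), CDK6 (0.31) and E2F3 (0.29), which act in G1.

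Of 44 genes of G2 and mitosis, 19 fell and 2 rose, with a median of -0.17. CDK1, the mitotic kinase, was at 239.1, 294.3 and 267.2 CPM in DMSO and 168.8, 157.8 and 174.8 CPM at 1 µM (-0.68 ± 0.07, adjusted p = 4.01e-05). PRC1, which bundles the microtubules of the central spindle, was at 6.46, 8.24 and 6.79 CPM in DMSO and 3.6, 2.66 and 3.55 CPM at 1 µM (-1.14 ± 0.18, adjusted p = 0.00079). Both were lower in every treated sample, but part of PRC1 is shared with AC068831.7 on the same strand. The 2 that rose, named after their values were seen, were the mitotic kinase AURKA (0.23) and CCNB1 (0.21), the cyclin partner of CDK1. TPX2, the most abundant member per length, was at 677.5, 723.5 and 707.3 CPM in DMSO and 652.3, 694.0 and 701.0 CPM at 1 µM and did not pass the test (adjusted p = 0.57).

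For 3 called genes, put together after their values were seen, treated replicate 2 lay apart from replicates 1 and 3. CENPE, a kinetochore motor, was at 68.5, 99.2 and 58.1 CPM in DMSO and 22.3, 59.2 and 23.7 CPM at 1 µM (-1.11 ± 0.28, adjusted p = 0.0149). CENPF, a kinetochore protein, was at 398.8, 499.1 and 367.1 CPM in DMSO and 163.3, 371.9 and 187.8 CPM at 1 µM (-0.81 ± 0.22, adjusted p = 0.0201). TPR, the basket protein of the nuclear pore, was at 225.7, 278.4 and 206.1 CPM in DMSO and 119.0, 225.2 and 124.1 CPM at 1 µM (-0.61 ± 0.18, adjusted p = 0.0356). In all 3 genes treated replicate 2 reached into the DMSO range, and without it the log2 fold changes were -1.72, -1.27 and -0.97. Without treated replicate 1 they were -0.86, -0.59 and -0.44, without treated replicate 3 -0.89, -0.66 and -0.46, and none of these 6 values passed the test. TPR also missed it without DMSO replicate 2 (-0.47). Of the 1160 protein-coding genes called lower, treated replicate 1 was nearest DMSO for 552, replicate 2 for 299 and replicate 3 for 309. The groups overlapped in 29 of these, where replicate 1 was nearest for 7, replicate 2 for 18 and replicate 3 for 4. With DESeq2 the adjusted p of the 3 genes was 0.146, 0.209 and 0.277.

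Of 53 cilium and centriole genes, 13 fell and 4 rose, with a median of -0.14. CEP290, which gates the base of the cilium, was at 44.3, 61.3 and 41.7 CPM in DMSO and 14.8, 30.3 and 14.5 CPM at 1 µM (-1.31 ± 0.22, adjusted p = 0.00121). CEP152, a scaffold for new centrioles, was at 63.3, 78.4 and 65.8 CPM in DMSO and 28.0, 33.7 and 29.4 CPM at 1 µM (-1.19 ± 0.09, adjusted p = 8.79e-06). AKAP9, which anchors kinase A at the centrosome and Golgi and is on none of the lists, was at 59.2, 75.9 and 56.8 CPM in DMSO and 20.6, 40.3 and 19.6 CPM at 1 µM (-1.26 ± 0.20, adjusted p = 0.000922). The groups did not overlap for any of these genes, though treated replicate 2 was again the highest treated sample in each. BBS12, a chaperone of the ciliary coat complex, rose by 0.78 ± 0.19 (adjusted p = 0.0112).

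Among protein-coding genes the share that fell climbed with exon length, from 5.11% in the shortest decile (207 to 2210 bases) to 14.6% in the longest decile (from 10767 bases upward). The share that rose lay between 7.28% and 10.6% over the deciles with no such order. Removing each sample's length trend left 2602 of the 2752 calls, and 2789 in all.

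Some tubulins fell while none of the factors that fold them did. Of 14 alpha- and beta-tubulins tested, 4 fell and none rose, with a median of -0.16. TUBB was at 2201, 2172 and 2197 CPM in DMSO and 1557, 1554 and 1578 CPM at 1 µM (-0.49 ± 0.05, adjusted p = 1.9e-05). TUBA1B was at 1206, 1291 and 1243 CPM in DMSO and 970.3, 983.6 and 880.6 CPM at 1 µM (-0.41 ± 0.06, adjusted p = 0.000314). The samples of each group were close together and the groups did not overlap, although reads of near-identical tubulins can be assigned to the wrong member. Of 20 chaperonin, prefoldin and cofactor genes, 4 rose and none fell, led by the tubulin cofactor TBCC at 17.5, 16.2 and 19.9 CPM in DMSO and 25.9, 24.9 and 25.2 CPM at 1 µM (0.50 ± 0.09, adjusted p = 0.00268). Of 25 actin and serum response factor targets 1 fell, the tropomyosin TPM1 (-0.34 ± 0.06), and none rose.

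CDK inhibitors and quiescence genes moved both ways, with 6 higher and 4 lower of 19 tested. CDKN1A, which encodes p21, was at 24.5, 24.5 and 24.3 CPM in DMSO and 38.2, 37.7 and 39.6 CPM at 1 µM (0.65 ± 0.07, adjusted p = 7.82e-05). CDKN2B rose by 0.50 ± 0.08 and the forkhead factor FOXO1 by 0.61 ± 0.13, whereas CDKN2D fell by 0.46 ± 0.10. Of 29 p53 targets, 5 rose (17.2%) and 3 fell (10.3%), with a median of 0.04, beside 7.67% and 9.95% of all genes. GDF15, a secreted stress factor, was at 1.22, 0.724 and 1.06 CPM in DMSO and 4.36, 2.77 and 3.85 CPM at 1 µM (1.86 ± 0.28, adjusted p = 0.000607). AEN, a nuclease of apoptosis, rose by 0.54 ± 0.07 and the repair factor DDB2 fell by 0.45 ± 0.07. Of 19 BCL2 family genes 3 rose (15.8%) and none fell. The pore former BAK1 rose by 0.35 ± 0.08 (adjusted p = 0.00964). It was at 31.0, 30.6 and 29.7 CPM in DMSO and 35.4, 41.4 and 40.4 CPM at 1 µM. MCL1, a survival member, was at 293.1, 305.1 and 301.2 CPM in DMSO and 336.9, 331.7 and 317.6 CPM at 1 µM and did not pass the test (adjusted p = 0.112).

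Calls among the outputs of the MAPK cascade were all upward. Of 19 feedback genes, 11 rose and none fell, with a median of 0.40. Of 23 immediate early genes 12 rose and none fell, with a median of 0.42. EGR1 and NR4A3 among the latter, and DUSP2 among the feedback genes, passed the count filter through the 1 µM samples, which favours calls upward. DUSP5, a nuclear phosphatase that inactivates ERK, was at 11.2, 11.5 and 14.9 CPM in DMSO and 26.3, 29.0 and 29.6 CPM at 1 µM (1.17 ± 0.11, adjusted p = 1.9e-05). IER3, an immediate early survival gene on both lists, was at 92.7, 74.3 and 80.3 CPM in DMSO and 160.6, 153.6 and 160.9 CPM at 1 µM (0.93 ± 0.08, adjusted p = 9.51e-06). FOS was at 2.97, 1.89 and 2.24 CPM in DMSO and 4.04, 5.08 and 5.03 CPM at 1 µM (0.98 ± 0.22, adjusted p = 0.00719). In these 3 genes the lowest treated sample lay above the highest DMSO sample.

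EGR1, a zinc finger factor of the same class, was near the floor in DMSO, at 0.116, 0.78 and 0.413 CPM, and stood at 4.15, 4.27 and 3.08 CPM at 1 µM. The test gave it 3.09 ± 0.39 on the log2 scale (adjusted p = 0.000159), from 2 to 14 counts per DMSO sample and 52 to 76 per treated sample.

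Of 14 EGF family ligands and receptors, 4 rose and none fell. EREG, an EGF receptor ligand, was at 3.14, 3.51 and 3.25 CPM in DMSO and 10.3, 8.38 and 8.17 CPM at 1 µM (1.43 ± 0.16, adjusted p = 6.17e-05). HBEGF, a further ligand of the receptor, was at 17.9, 16.0 and 16.4 CPM in DMSO and 24.3, 23.9 and 26.3 CPM at 1 µM (0.56 ± 0.09, adjusted p = 0.000992). LRIG1, which restrains the receptor, rose by 0.51 ± 0.11 (adjusted p = 0.00657). Treated and solvent samples did not overlap for these genes.

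The 15 protein-coding genes with the largest rise at a mean of at least 10 CPM included IL1B, IL1A, CXCL8, CSF3, CXCL3, CXCL2 and CXCL1, with log2 fold changes of 1.01 to 1.85. No list of cytokines was fixed, so these genes say nothing of cytokines as a group. VGF, a neurosecretory protein, was at 27.7, 19.6 and 24.6 CPM in DMSO and 53.6, 65.5 and 57.8 CPM at 1 µM (1.29 ± 0.11, adjusted p = 1.44e-05). SLC43A2, an amino acid transporter, was at 11.1, 8.52 and 12.5 CPM in DMSO and 23.2, 20.9 and 25.6 CPM at 1 µM (1.11 ± 0.13, adjusted p = 9.35e-05). TXNIP, which binds thioredoxin and limits glucose uptake, was at 48.3, 52.2 and 49.1 CPM in DMSO and 97.5, 105.4 and 105.9 CPM at 1 µM (1.04 ± 0.06, adjusted p = 2.69e-06). The groups did not overlap for any of the 3. The complement component C3, chosen after its values were seen, rose from 60.9, 50.0 and 49.3 CPM to 122.5, 100.8 and 94.7 CPM (0.98 ± 0.10, adjusted p = 2.97e-05), and part of it is shared with GPR108.

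Of 21 TGF-beta and SMAD genes, 7 rose and 2 fell. The receptor TGFBR2 was at 119.9, 112.7 and 122.7 CPM in DMSO and 178.5, 161.6 and 161.5 CPM at 1 µM (0.49 ± 0.06, adjusted p = 0.000159). The ligand TGFB2, also on the list of YAP targets, was at 110.5, 116.5 and 115.2 CPM in DMSO and 74.9, 71.6 and 75.7 CPM at 1 µM (-0.63 ± 0.06, adjusted p = 1.71e-05). The receptor and the ligand thus moved in opposite directions, each without overlap. Of 24 YAP and TEAD targets, 3 rose (12.5%) and 5 fell (20.8%), against 7.67% and 9.95% of all genes. Their median was -0.08, and CYR61 fell by 0.29 ± 0.05.

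Matrix genes divided evenly, with 7 higher and 7 lower of 35. The urokinase gene PLAU was at 169.5, 182.1 and 183.0 CPM in DMSO and 272.1, 247.9 and 239.0 CPM at 1 µM (0.50 ± 0.06, adjusted p = 0.000129). LAMA3, a laminin chain, fell by 0.56 ± 0.09 (adjusted p = 0.000771) and the protease inhibitor TIMP3 by 0.27 ± 0.05 (adjusted p = 0.00244). Of 20 epithelial genes 4 rose and 1 fell, and the tight junction gene CLDN4 was at 25.4, 21.5 and 23.6 CPM in DMSO and 30.2, 37.6 and 35.1 CPM at 1 µM (0.54 ± 0.10, adjusted p = 0.00234). Of 18 mesenchymal genes 4 rose (22.2%) and 1 fell (5.56%). The fall was in the growth factor receptor PDGFRB (-0.48 ± 0.07, adjusted p = 0.000773), and the zinc finger repressor ZEB2 rose by 0.43 ± 0.06 (adjusted p = 0.000443). The 9 fibroblast markers, given as a sum above, were lower at 1 µM with no overlap, mostly through COL1A1 (-0.41 ± 0.10, adjusted p = 0.0132). Of the 6 tested, COL1A1 and PDGFRB fell, PDGFRA rose from 3 to 11 counts per sample to 24 to 29 (1.62 ± 0.42, adjusted p = 0.0159), and LUM was at 0.33 ± 0.14 (adjusted p = 0.11). PDGFRA, also among the 4 mesenchymal genes that rose, passed the count filter only with the 1 µM samples, which favours a call upward. COL1A2, COL3A1 and DCN stayed under 10 counts, and the part of these markers in the results was not tested.

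Interferon-stimulated genes rose in part, with 10 higher and 1 lower of 39 and a median of 0.14. IFIT3, an antiviral effector, was at 6.99, 9.58 and 8.26 CPM in DMSO and 14.4, 13.9 and 13.0 CPM at 1 µM (0.72 ± 0.13, adjusted p = 0.0018). IFIT2, its neighbour on chromosome 10, was at 7.92, 6.91 and 5.43 CPM in DMSO and 12.5, 10.7 and 10.5 CPM at 1 µM (0.73 ± 0.15, adjusted p = 0.00438). Both lie across LIPA on the other strand, and B2M, the most abundant member, did not pass the test (0.11 ± 0.06, adjusted p = 0.203). The 8 immune cell markers summed to 1.06 to 2.45 CPM in DMSO and 3.14 to 3.55 CPM at 1 µM, nearly all of it CD14 and CSF1R, while PTPRC and CD3E had at most 1 count in any sample and MS4A1 none. Of the 8, only CD14 and CSF1R had enough counts to be tested, and CD14 passed (1.07 ± 0.35, adjusted p = 0.0484). CD14 had 21, 8 and 18 counts in DMSO and passed the count filter only with the 1 µM samples, which favours a call upward. The part of the 8 markers in the results for cytokines and interferon genes was not tested.

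Stress programmes differed from one another. Of 27 heat shock genes, 9 rose and none fell, with a median of 0.13. The co-chaperone HSPH1 was at 156.3, 168.2 and 166.5 CPM in DMSO and 229.7, 216.5 and 217.1 CPM at 1 µM (0.43 ± 0.06, adjusted p = 0.000201). DNAJA1, which hands substrates to HSP70, was at 98.2, 111.0 and 102.1 CPM in DMSO and 138.3, 133.5 and 127.4 CPM at 1 µM (0.35 ± 0.06, adjusted p = 0.00183). The HSP70 gene HSPA1B rose by 0.59 ± 0.08, though its sequence is nearly that of HSPA1A and the reads of the pair are hard to divide. HSP90AB1, the most abundant member, did not pass (0.06 ± 0.05, adjusted p = 0.409). Of 29 unfolded protein response genes 3 rose, each by at most 0.25, and none fell. The share that rose was 10.3%, against 7.67% over all genes and 9.13% over protein-coding genes.

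The targets of ATF4, which supply amino acids under stress, moved both ways, with 4 higher and 6 lower of 31 and a median of -0.05. ASNS, asparagine synthetase, was at 9.37, 9.36 and 9.03 CPM in DMSO and 3.71, 3.99 and 3.49 CPM at 1 µM (-1.32 ± 0.14, adjusted p = 5.35e-05). PSAT1, an enzyme of serine synthesis, was at 160.9, 179.8 and 167.4 CPM in DMSO and 123.6, 109.5 and 121.1 CPM at 1 µM (-0.53 ± 0.06, adjusted p = 0.000123). CEBPB, a bZIP factor of the same list, was at 193.7, 177.7 and 184.3 CPM in DMSO and 286.8, 251.0 and 251.3 CPM at 1 µM (0.50 ± 0.06, adjusted p = 0.000186). The synthetic enzymes were thus lower, and the factor higher, in all treated samples.

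Of 30 NRF2 targets, 6 rose and 1 fell, and of 51 autophagy and lysosome genes 7 rose and 2 fell. SQSTM1, the autophagy receptor p62 on both lists, was at 277.1, 268.1 and 261.7 CPM in DMSO and 427.4, 416.2 and 406.2 CPM at 1 µM (0.62 ± 0.05, adjusted p = 1.21e-05). MAP1LC3B, which coats autophagosomes, was at 90.1, 94.8 and 94.9 CPM in DMSO and 121.2, 128.8 and 131.4 CPM at 1 µM (0.44 ± 0.06, adjusted p = 0.000259). ATG16L2 was at 38.1, 36.9 and 34.0 CPM in DMSO and 21.7, 14.2 and 17.5 CPM at 1 µM (-1.04 ± 0.12, adjusted p = 8.53e-05), and ATG4B fell by 0.40 ± 0.08. The receptor and the coat gene rose while these 2 members fell. Of 17 subunits of the V-ATPase, the proton pump that acidifies lysosomes, 7 rose and none fell, with a median of 0.18. ATP6V0D1 was at 45.4, 41.5 and 49.0 CPM in DMSO and 60.2, 64.4 and 61.6 CPM at 1 µM (0.45 ± 0.07, adjusted p = 0.00113), and ATP6V1A and ATP6V1C1 each rose by 0.28 ± 0.06.

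Ribosome biogenesis factors and ribosomal proteins are given in turn. Of 44 ribosome biogenesis genes 17 rose and none fell, with a median of 0.20. RRS1, needed for the large subunit, was at 23.8, 24.6 and 20.7 CPM in DMSO and 35.1, 36.3 and 36.2 CPM at 1 µM (0.63 ± 0.09, adjusted p = 0.000268). POLR1A, the largest subunit of RNA polymerase I, was at 40.2, 39.9 and 40 CPM in DMSO and 53.4, 56.0 and 57.3 CPM at 1 µM (0.47 ± 0.07, adjusted p = 0.000419). DDX21, a nucleolar helicase, was at 199.0, 239.0 and 216.6 CPM in DMSO and 306.5, 274.5 and 282.1 CPM at 1 µM (0.39 ± 0.07, adjusted p = 0.00156). The groups stayed apart in each of the 3. Of 44 large subunit proteins 2 fell and none rose, with a median of -0.06. Of 32 small subunit proteins none was called by edgeR or by DESeq2 and 2 had an unadjusted p under 0.05, with a median of -0.07 that was -0.0121 without 1 µM replicate 1, and of 61 mitochondrial ribosomal proteins 1 rose and 2 fell.

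Among genes of energy metabolism, the respiratory lists held no calls, against 17.6% of all genes tested in either direction. None of 37 complex I subunits, 39 subunits of the other respiratory complexes and ATP synthase, or 13 mitochondrially encoded proteins was called by edgeR or by DESeq2, with medians of -0.06, -0.09 and 0.03, and at an unadjusted p under 0.05 there were 7, 5 and 3. The median of complex I was -0.0175 without 1 µM replicate 1, and that of the mitochondrially encoded proteins was -0.0031 without 1 µM replicate 3 and 0.064 without replicate 2. Of 33 hypoxia and glycolysis genes 4 rose (12.1%) and 2 fell (6.06%), against 7.67% and 9.95% of all genes. GAPDH was at 3991, 4261 and 4062 CPM in DMSO and 4010, 4197 and 4229 CPM at 1 µM. Of 25 cholesterol synthesis genes 5 rose and 2 fell, with the synthetic enzyme HSD17B7 lower by 0.71 ± 0.12 (adjusted p = 0.000995). The desaturase SCD was at 604.1, 590.3 and 597.2 CPM in DMSO and 701.4, 690.6 and 711.9 CPM at 1 µM (0.22 ± 0.05, adjusted p = 0.00661).

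Among chromatin genes and zinc fingers more members were called lower than higher, which does not describe the lists as a whole. Of 40 histone lysine methyltransferases and demethylases, 7 fell and 1 rose. The share that fell was 17.5%, against 9.95% over all genes. Yet 22 of the 40 had a log2 fold change above 0, and the list median was 0.01. The median of the KRAB genes given below was -0.05. KMT5C, which methylates histone H4, was at 28.1, 25.7 and 26.6 CPM in DMSO and 17.1, 18.5 and 15 CPM at 1 µM (-0.67 ± 0.10, adjusted p = 0.000411). EZH1 was at 57.2, 63.9 and 63.0 CPM in DMSO and 45.7, 43.1 and 42.3 CPM at 1 µM (-0.50 ± 0.07, adjusted p = 0.000348). Both were lower in every treated sample. Of 153 tested KRAB zinc finger genes of chromosome 19, a family of repressors of repeated elements with many similar members, 14 fell and 1 rose, which is 9.15% and close to the 9.95% over all genes. Of 18 clock genes 2 rose and 3 fell, with PER3 at 19.2, 16.5 and 19.4 CPM in DMSO and 11.8, 10.9 and 10.5 CPM at 1 µM (-0.74 ± 0.11, adjusted p = 0.000442) and the repressor BHLHE40 at 45.5, 46.8 and 44.8 CPM in DMSO and 65.6, 66.6 and 65.6 CPM at 1 µM (0.52 ± 0.06, adjusted p = 0.000123).

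The samples given 0.3 µM share their DMSO controls with this comparison, so their levels are only set beside it. CDKN1A was at 28.2, 25.9 and 30.9 CPM at 0.3 µM, EREG at 3.39, 3.72 and 3.46 CPM, and MALAT1 at 212.5, 247.7 and 246.8 CPM. The summed replication-dependent histones were at 161.1, 163.7 and 159.4 CPM, and HIST2H2BE at 10.7, 10.8 and 10.4 CPM. The 0.3 µM samples differed widely among themselves for TXNIP, at 80.8, 63.3 and 33.4 CPM, and for ASNS, at 5.53, 6.5 and 17.3 CPM, whose replicate 3 lay above every DMSO sample.

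**Figure D5:**
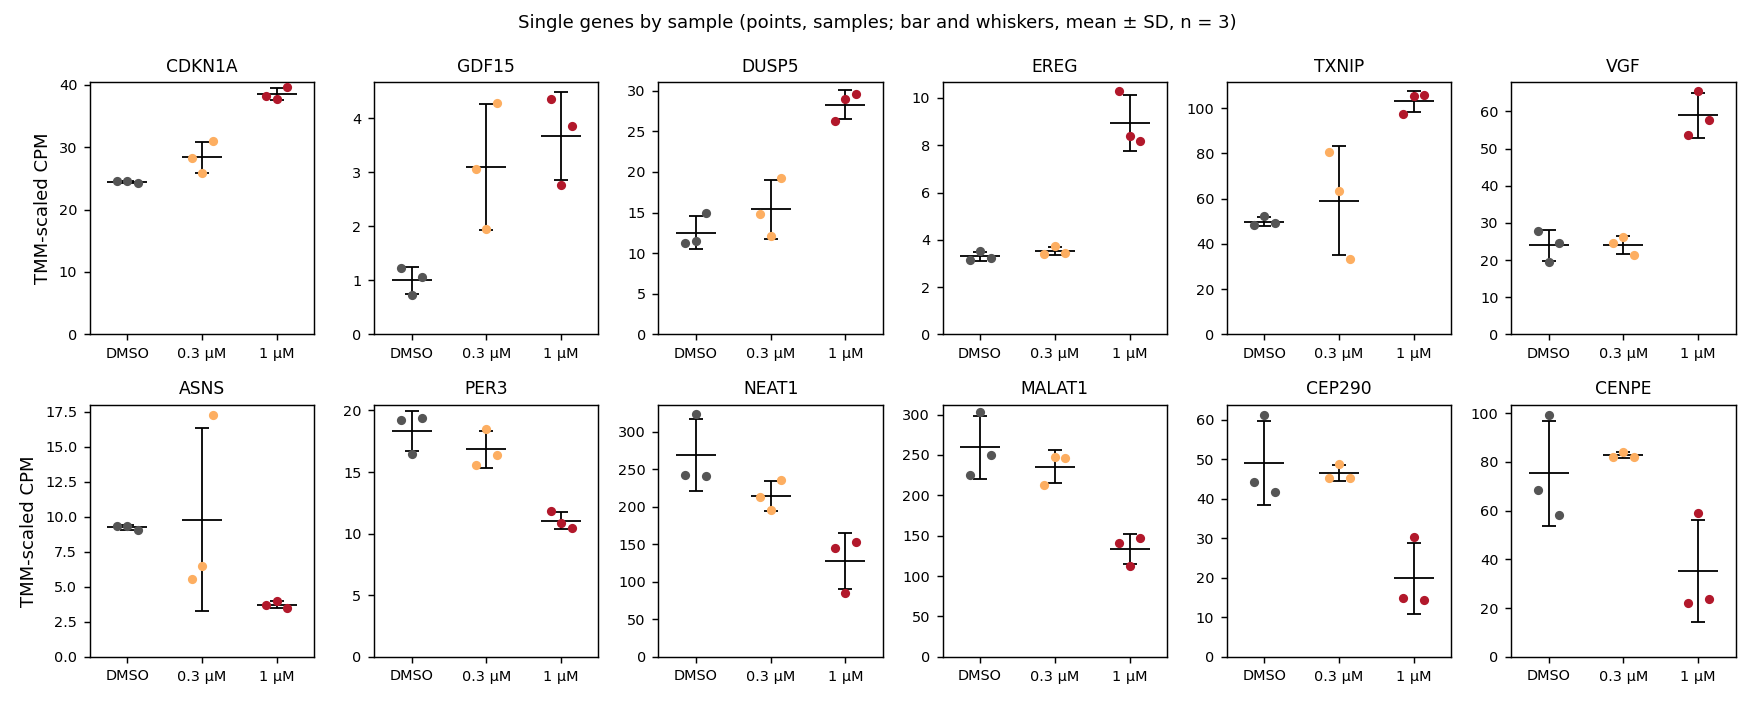
TMM-scaled CPM of 12 genes in each sample given DMSO, 0.3 µM or 1 µM of YK-4-279, with points for samples and bars with whiskers for the mean ± SD (n = 3). The top row holds genes that rose at 1 µM and the bottom row genes that fell, and treated replicate 2 of CENPE reaches into the DMSO range at 59.2 CPM.

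Counts for the 9 remaining lists follow, beside 17.6% of all genes tested that were called in either direction. Of 19 Notch and WNT targets 1 rose, of 32 proteasome subunits 4 rose, of 31 ER to Golgi transport genes 6 rose, of 23 aminoacyl-tRNA synthetases 2 rose, of 18 integrins 2 rose, of 19 fatty acid synthesis genes 2 rose and of 7 metallothioneins and their regulator 1 rose, with none of these lists holding a lower gene. Of 30 nuclear pore genes 3 rose and 3 fell, and of 16 genes of nonsense-mediated decay 1 rose and 2 fell. For the transport genes 19.4% rose, against the 7.67% over all genes, with TMED2, a cargo receptor of transport vesicles, at 149.4, 177.0 and 164.9 CPM in DMSO and 207.1, 199.5 and 193.6 CPM at 1 µM (0.28 ± 0.06, adjusted p = 0.00845).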

How the data were processed

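RNA of KHM-5M cells was sequenced in 9 samples, 3 per group. The authors deposited a table of raw counts per gene (reads assigned to genes, not normalised) with gene length and biotype. Per the submitters' processing notes, HISAT2 2.0.5, featureCounts 1.5.0-p3 and DESeq2 1.20.0 were used, and the study's methods name HTseq as the counter, alignment to GRCh38, a stranded kit and 2 replicates per condition, where the labels name a kit that does not mark strand and 3 samples. The table also held FPKM values deposited by the authors and their own fold changes and p-values for each comparison, none of which were used.

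Groups came from the labels. The count test was edgeR 4.0.16 in R 4.3.3 (quasi-likelihood, TMM scaling, filterByExpr with a minimum count of 10, no covariate, Benjamini-Hochberg over 15617 genes, called at adjusted p under 0.05), on the 6 samples of the comparison. The ± value of a log2 fold change is its size divided by the square root of the test's F statistic, with 3 samples per group. CPM values are scaled by TMM factors over all 9 samples. DESeq2 1.42.0 and the other alternatives are given in the closing section. The test was run on simulated counts with known changes. Total counts of 16903251 to 18238884 limit the precision of genes near 3 counts (0.164 to 0.177 CPM), and these cover counting error only.

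The gene lists, and the comparison itself, were chosen with earlier results of these data known. Named genes are the 15 protein-coding genes with the largest rise and 15 with the largest fall (adjusted p under 0.05, mean of at least 10 CPM, no overlap), 6 and 6 of other biotypes at 2 CPM, up to 4 called members per list at 1 CPM with the most abundant per length, and the cell type markers. Others are named as chosen after their values were seen. Of the KRAB genes first listed, 7 off chromosome 19 were dropped. Replicate numbers did not pair the samples: deviations of same-numbered samples correlated at -0.057, -0.023 and 0.066. GC content came from GENCODE transcripts, for 99.5% of genes tested. Promoters of 250 bases came from RefSeq. The chi-square statistic of each pair of replicates, divided by its degrees of freedom, was 3.39 to 11.75 over genes with at least 40 counts in the pair, so no pair agreed within counting error. Some genes that the naming rule selects are not reported here.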

Additional observations from a re-analysis of the deposited data

How the results depend on the processing

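Of 2752 genes called, DESeq2 in place of edgeR shared 2198 of its 2286 and RLE size factors 2711 of 2775, all samples in 1 fit shared 2523 of 2630, and every shared call in these 3 fits kept its direction. Few replicates limit genes near the count filter. Where a value moved, the cause was not tested, except that an unadjusted p and a 1.5-fold minimum change the rule for calling.

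Genes higher numbered 1848 with the GC trend removed, 2372 at an unadjusted p and 214 at 1.5-fold. Genes lower numbered 2613 at an unadjusted p and 647 at 1.5-fold. Non-coding genes higher (20) numbered 10 with DESeq2, 31 with no filter, 47 with the length trend removed, 83 at an unadjusted p and 13 at 1.5-fold, and non-coding genes lower (394) numbered 254 with DESeq2 and 697 at an unadjusted p. Leaving out each sample in turn, 655 to 1405 genes were higher, 1004 to 1572 lower, 8 to 20 non-coding genes higher and 228 to 370 lower.

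With the replicate number as a block, 853 genes were higher, 1267 lower, 9 non-coding genes higher and 345 lower. The numbers did not pair the samples, and no list median moved beyond the spread between samples under the block.

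With no filter beyond 1 count, list medians (log2) moved to -0.0575 for YAP targets, -0.2109 for G1/S genes, -0.027 for ATF4 targets, 0.1394 for NRF2 targets, 0.0916 for hypoxia, 0.088 for autophagy, 0.0463 for the clock, 0.1522 for cholesterol, 0.1107 for fatty acids, 0.2039 for the V-ATPase, -0.1519 for snoRNA hosts, 0.0377 for histone methylation and 0.098 for ER to Golgi transport. With the length trend removed they moved to 0.3036 for metallothioneins, 0.1876 for interferon genes, 0.206 for mitochondrially encoded proteins, 0.2193 for the V-ATPase, -4e-04 for the core spliceosome and 0.9803 for histones. The medians of autophagy and fatty acids were 0.0777 and 0.0999 with DESeq2, and 0.0765 and 0.111 with the GC trend removed.

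Leaving out each sample in turn, medians ranged from -0.19 to -0.0945 for tubulins, -0.1086 to -0.0584 for YAP targets, 0.0843 to 0.2093 for CDK inhibitors, 0.0625 to 0.1076 for p53 targets, 0.0219 to 0.1093 for the BCL2 family, -0.0604 to -0.0347 for ATF4 targets, 0.1082 to 0.3297 for metallothioneins, 0.0257 to 0.0794 for the proteasome and 0.0568 to 0.0933 for autophagy. They ranged from 0.3304 to 0.5358 for immediate early genes, 0.3284 to 0.4657 for MAPK feedback, 0.1436 to 0.2093 for the EGF family, 0.1195 to 0.2357 for interferon genes, -0.0295 to 0.0175 for the clock, -0.0454 to 0.0324 for integrins, -0.0063 to 0.0777 for matrix genes, 0.1146 to 0.2289 for epithelial genes, 0.0837 to 0.1525 for cholesterol and 0.052 to 0.1053 for fatty acids. The ranges were 0.133 to 0.1891 for the V-ATPase, -0.0732 to -0.0121 for the large ribosomal subunit, -0.0534 to 0.0026 for the core spliceosome, -0.2065 to -0.1506 for snoRNA hosts, -0.4697 to -0.1985 for nuclear long RNAs, 0.6625 to 0.8975 for histones, -0.0703 to -9e-04 for KRAB genes and -0.0189 to 0.0214 for the nuclear pore.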
